A study of Mus musculus with 6 samples.

Results

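The 28 mouse genes described here encode enzymes of the mevalonate and cholesterol pathway and the proteins that sense, move, store or remove sterol. They were chosen by name from the 32288 genes used (those of the mouse and a few human genes), and each was found once in every section. The choice was made with earlier results of these data known. By role, Acat2, Hmgcs1, Mvk, Pmvk, Mvd, Idi1 and Fdps act in the mevalonate steps, and Ggps1 opens the branch to geranylgeranyl groups. Fdft1, Sqle and Lss make squalene and lanosterol, and Cyp51, Tm7sf2, Msmo1, Nsdhl, Hsd17b7, Ebp, Sc5d and Dhcr7 turn lanosterol into cholesterol. Srebf1, Srebf2, Scap, Insig1 and Insig2 sense sterol and set transcription, Stard4, Soat1 and Npc1 move or store it, and Cyp46a1 removes it. A further 34 genes of the same pathway were counted beside them.

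The adult brain makes its own cholesterol because lipoproteins of the blood do not cross the blood-brain barrier. Synthesis is switched by SREBP transcription factors: when membrane sterol is low, SCAP carries SREBP from the endoplasmic reticulum to the Golgi, where proteases free the part that enters the nucleus, and when sterol is high, INSIG proteins hold SCAP back. Astrocytes and oligodendrocytes are known as major sites of synthesis, APOE is the main carrier between cells, and neurons clear surplus through the hydroxylase CYP46A1.

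The data were spatial transcriptomes (Visium, a slide of barcoded spots that capture polyadenylated RNA) of coronal right-hemisphere brain sections, with 1 section per group. The groups were E4 and E3 5xFAD mice at 12 months, E4 and E3 aged mice at 24 months and E4 and E3 young mice at 3 months. All mice were female and homozygous for human APOE in place of the mouse coding region, under the mouse Apoe promoter, so no group had mouse APOE protein as a control. The 5xFAD mice also carried amyloid transgenes, among them mutant human APP, driven by the neuronal Thy1 promoter and came from a cross to a strain of mixed background. They were 9 months older than the young mice, so transgenes, background and age cannot be told apart in 5xFAD against young. A spot holds several cells, and in such sums fewer cells of a type and less RNA per cell cannot be told apart.

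Together the 6 sections held 186693762 UMIs (unique molecular identifiers, here counts of captured RNA molecules) in 14524 spots, with 20343701 to 37266232 UMIs per section. The E4 aged section stood apart by its anatomy, with 189 cortex spots against 712 to 954 in the others. The E3 5xFAD section, which enters every 5xFAD comparison, stood apart in its files: 99.9% of its tissue spots had a barcode in the count matrix, against 75.9% to 86.0% in the other 5 sections, and its matrix header named Space Ranger 2.0.0, against 1.2.2 in theirs. The 5xFAD counts of calls in cortex, hippocampus, thalamus and hypothalamus are also given without that section, and the part of the software version was not tested. Transcripts of human APP, the transgene of the 5xFAD mice, had 2926 and 1869 UMIs in the E4 and E3 5xFAD sections and at most 10 in any other section, and human APOE was at 735.5 to 1073 CPM (UMIs of a gene per 1000000 UMIs of the same spots) in all 6. Spots were grouped by clustering without the members and the other pathway genes, and each cluster took the name of the region whose markers led it: for example Slc17a7 in cortex, Hpca and Neurod6 in hippocampus, Prkcd and Tcf7l2 in thalamus, Pmch and Hcrt in hypothalamus, Penk and Ppp1r1b in cerebral nuclei, and Mbp in fiber tracts. Fiber tracts were shallow, with 108998 to 707140 UMIs per section, and 72.0% of their spots lay in a cluster with a median of 395 UMIs. Sections shared 1424 to 2472 spot barcodes pairwise, since these barcodes are fixed positions of the slide and not cells.

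Promoter sequence was available for 23 of the 28 members in the RefSeq table of build GRCm38.p6, as windows of 250 bases before to 50 bases after the start of transcription. The sterol regulatory element, the site that SREBPs bind, was searched on both strands as TCACNCCAC, the CCAAT box as CCAAT and the GC box as GGGCGG, and none of these motifs contains another. The sterol element was present in 1 of 23 members, Hmgcs1, or 4.35% against 1.44% of all 27025 genes in the table. A CCAAT box was present in 21 of 23 (91.3% against 41.1%) and a GC box also in 21 of 23 (91.3% against 38.2%). A match is a run of letters and not a bound site, and these members were chosen by pathway and not by sequence. Printed are the 150 bases upstream of the start for 4 members on which the results turn: Acat2 and Nsdhl, called in 5xFAD cortex, Idi1, called in 5xFAD thalamus, and Hmgcs1, called in the difference between regions. They lie at chr17:12960726-12960875 (minus strand), chrX:72918371-72918520 (plus strand), chr13:8885456-8885605 (plus strand) and chr13:119690201-119690350 (plus strand), each outside the transcribed part of its own gene. Capitals mark the sterol element, CCAAT boxes and GC boxes, each as read on the strand shown or as its reverse complement.
Acat2: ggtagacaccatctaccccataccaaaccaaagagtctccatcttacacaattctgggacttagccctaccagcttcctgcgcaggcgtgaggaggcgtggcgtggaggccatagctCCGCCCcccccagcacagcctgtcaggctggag
Nsdhl: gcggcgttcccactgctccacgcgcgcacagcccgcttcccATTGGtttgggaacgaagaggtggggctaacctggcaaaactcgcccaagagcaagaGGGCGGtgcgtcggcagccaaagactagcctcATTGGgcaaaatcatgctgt
Idi1: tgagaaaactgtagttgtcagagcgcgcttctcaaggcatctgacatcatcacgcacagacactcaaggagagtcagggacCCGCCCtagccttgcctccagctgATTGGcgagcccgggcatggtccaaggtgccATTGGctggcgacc
Hmgcs1: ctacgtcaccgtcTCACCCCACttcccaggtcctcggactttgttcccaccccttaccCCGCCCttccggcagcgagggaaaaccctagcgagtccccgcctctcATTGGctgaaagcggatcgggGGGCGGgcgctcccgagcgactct
Acat2 had a GC box and no CCAAT box in this stretch, whereas Nsdhl and Idi1 each had 2 CCAAT boxes. In Hmgcs1 the sterol element began 137 bases before the start.

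The members were first compared between brain regions within the same sections. Among the 6 regions tested, cortex held the highest mean of 12 members, among them the synthesis genes Acat2, Hmgcs1, Mvd, Idi1, Fdps, Fdft1, Sqle, Msmo1, Nsdhl and Ebp. This rank is by the mean over sections and is not a test, and a mean can be led by single high sections. Acat2 ranged from 45.0 to 84.0 CPM in cortex and from 48.6 to 61.2 CPM in hypothalamus. Thalamus held the highest mean of 8, fiber tracts of 7 and cerebral nuclei of 1, Cyp46a1. The meninges, ventricular system and habenula, with at most 103 spots in a section, were not ranked or tested, and some of their means were higher. Ventricular spots averaged 89.3 CPM of Sqle against 78.9 CPM in cortex, 39.2 against 33.9 CPM of Nsdhl, 29.4 against 25.5 CPM of Ebp, 41.1 CPM of Soat1 against 27.8 CPM in thalamus, and 115 CPM of Srebf1 against 95.8 CPM in fiber tracts. Idi1 and Msmo1 were slightly higher in meninges than in cortex, and Insig2 averaged 88.3 CPM in habenula against 65.7 CPM in thalamus. The test was edgeR's quasi-likelihood fit with section as a block, on the sums of each region and of cortex in the 6 sections. A gene is called here when its Benjamini-Hochberg adjusted p over all genes tested is under 0.05. Some members ranked highest in cortex were not called against it in another region. Among them were Acat2 (log2 fold change -0.08), Fdps (-0.16) and Fdft1 (-0.12) in hypothalamus and Idi1 (-0.01) in thalamus.

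**Figure D1:**
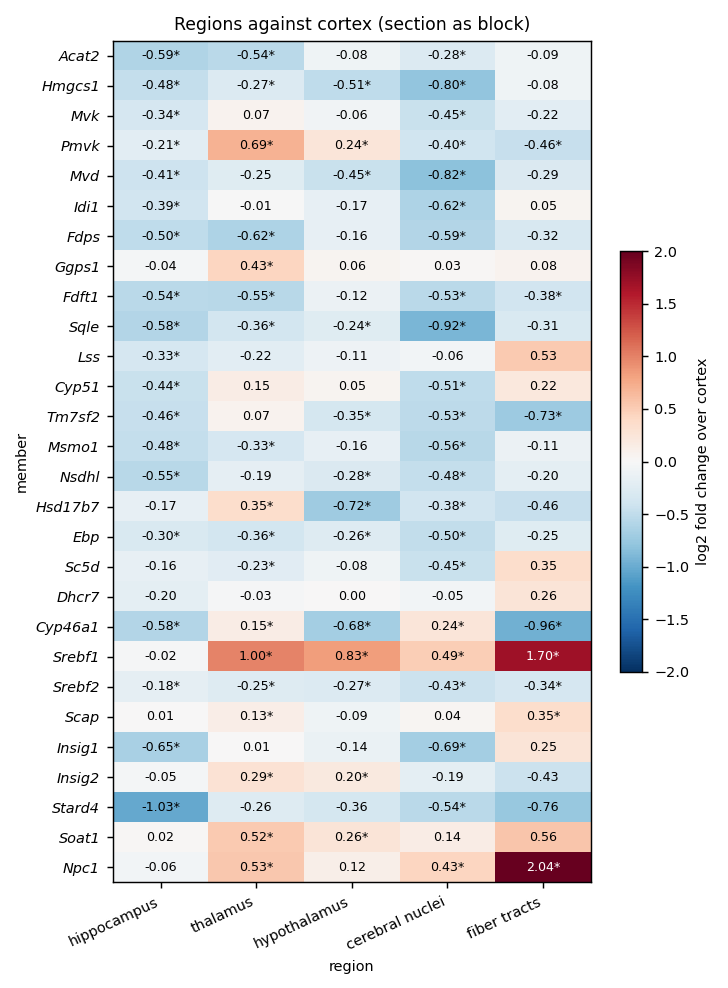
Heat map of the log2 fold change of each of the 28 members (rows, by role) in 5 regions against cortex (columns), from the edgeR fit over 6 sections, with the value in each field and a star where the gene was called. Srebf1 and Npc1 stand out in fiber tracts at 1.70 and 2.04, and most synthesis genes are below 0 in hippocampus and cerebral nuclei.

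In fiber tracts, 3 members were higher than in cortex and 5 were lower, that is 3 of 28 against 18.1% of all genes higher and 5 of 28 against 19.6% lower. Npc1, which exports cholesterol from lysosomes, had a lowest, median and highest section of 74.8, 137 and 211 CPM in fiber tracts and 32.7, 35.6 and 36.5 CPM in cortex. Every fiber tract value lay above every cortex value, and the log2 fold change was 2.04 ± 0.13 (SE). Srebf1, whose protein drives fatty acid genes more than sterol genes, had 81.6, 96.1 and 118 CPM in fiber tracts and 25.7, 29.8 and 35.1 CPM in cortex, again without overlap (1.70 ± 0.15, adjusted p = 1.5e-26). Scap was also higher (0.35 ± 0.14, adjusted p = 0.0364), at 73.3, 92.4 and 143 CPM in fiber tracts and 70.5, 72.5 and 79.9 CPM in cortex, with overlapping ranges. Cyp46a1, the sterol hydroxylase of neurons, was lower: 78.8, 100.2 and 163 CPM in fiber tracts and 196, 215 and 237 CPM in cortex (-0.96 ± 0.12). Tm7sf2, a sterol reductase, was lower by a fitted -0.73 ± 0.28 (adjusted p = 0.0264), with 5.63, 12.6 and 18.4 CPM in fiber tracts and 20.6, 22.6 and 32.3 CPM in cortex. Neither Tm7sf2 nor Cyp46a1 had a fiber tract section inside its cortex range.

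The other lower members in fiber tracts were Pmvk (-0.46 ± 0.18), the squalene synthase gene Fdft1 (-0.38 ± 0.13) and Srebf2 (-0.34 ± 0.12), whose protein is the main activator of the sterol enzymes. Srebf1 and Srebf2 thus lay on opposite sides of 0 in the same tissue. Stard4, a soluble sterol carrier, was not called (-0.76 ± 0.36, adjusted p = 0.0849), and with 0 of 108998 UMIs in the E4 aged section a level of up to 27.5 CPM there could not be seen (3 counts). Oligodendrocyte markers moved with these values: their summed level was 27731 to 38487 CPM in fiber tracts and 2236 to 3194 CPM in cortex, all 10 markers were called higher, as were all 10 microglia and 6 of 9 astrocyte markers, and 7 of 8 neuron markers were called lower; the part of cell makeup in the differences was not tested. Without the E4 5xFAD section 6 members were called, 5 higher and 1 lower, but Npc1, Srebf1 and Cyp46a1 stayed called in the same direction when any single section was left out.

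Thalamus split evenly, with 9 members higher (background 28.8%) and 9 lower (background 25.8%) than cortex. Srebf1 had 51.1, 61.2 and 69.7 CPM as lowest, median and highest section in thalamus, against 25.7, 29.8 and 35.1 CPM in cortex (0.999 ± 0.06). Pmvk, phosphomevalonate kinase, had 79.3, 88.6 and 104 CPM in thalamus against 47.7, 52.1 and 70.2 CPM in cortex (0.69 ± 0.08). For both genes all 6 thalamus values exceeded all cortex values. Fdps, which makes farnesyl diphosphate, lay on the other side, with 66.7, 73.1 and 82.6 CPM in thalamus against 84.7, 104 and 172 CPM in cortex and no overlap (-0.62 ± 0.10). The other higher members were Npc1 (0.53), Soat1 (0.52), Ggps1 (0.43), Hsd17b7 (0.35), Insig2 (0.29), Cyp46a1 (0.15) and Scap (0.13). The other lower members ran between -0.23 for Sc5d and -0.55 for Fdft1, with Acat2 at -0.54. Oligodendrocyte markers, all 10 called higher, summed to 5251 to 7137 CPM in thalamus and 2236 to 3194 CPM in cortex. Of the endothelial and mural markers 7 of 8 were called higher, and 7 of 8 neuron markers were called lower. Of the 9 astrocyte markers 5 were called higher and 2 lower, and of the 10 microglia markers 3 higher and 1 lower. The part of these lists was not tested. The median over the 28 members was -0.02 and that of all genes 0.02.

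In hippocampus no member was higher than cortex (21.3% of all genes were) and 19 were lower (background 21.7%). DESeq2 also called 0 higher, and none passed an unadjusted p of 0.05 upward in edgeR. Stard4 had 3.94, 7.32 and 12.3 CPM in hippocampus against 10.6, 14.0 and 24.1 CPM in cortex (-1.03 ± 0.13, adjusted p = 3.4e-06). Insig1, a retention protein and itself an SREBP target, had 36.6, 40.6 and 61.6 CPM against 56.8, 66.5 and 94.2 CPM in cortex (-0.65 ± 0.07). Acat2, the entry step, had 30.0, 37.7 and 49.2 CPM against 45.0, 51.3 and 84.0 CPM (-0.59 ± 0.07). The 3 ranges overlapped those of cortex, yet in each of the 6 sections the hippocampus value was below that section's own cortex value. Scap (0.01), Soat1 (0.02) and Srebf1 (-0.02) were near 0. The median over members was -0.36, against 0.01 over all genes. Among the cell lists, 5 of 8 neuron markers and 2 of 10 oligodendrocyte markers were also called lower in hippocampus. Of the 9 astrocyte markers 4 were called higher and 2 lower, and of the 6 oligodendrocyte precursor markers 2 higher and 1 lower. The part of these lists was not tested.

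Hypothalamus had 4 members higher (background 27.7%) and 9 lower (background 27.3%). Srebf1 was again highest above cortex, with 45.2, 55.4 and 66.6 CPM in hypothalamus against 25.7, 29.8 and 35.1 CPM in cortex (0.83 ± 0.06). Hsd17b7, a ketosteroid reductase of the late pathway, had 10.0, 10.3 and 11.6 CPM against 14.6, 16.5 and 19.4 CPM in cortex (-0.72 ± 0.10), and Cyp46a1 had 117, 138 and 162 CPM against 196, 215 and 237 CPM in cortex (-0.68 ± 0.05). None of these 3 genes overlapped with its cortex range. Soat1, Pmvk and Insig2 were the other higher members, at 0.26, 0.24 and 0.20. All 10 oligodendrocyte markers were called higher here as well, as were 5 of 9 astrocyte markers (1 astrocyte marker was lower). Lower calls covered 7 of 10 microglia markers and 5 of 8 neuron markers (2 neuron markers were higher). Their part in the members' values, that of neuronal Cyp46a1 included, was not tested.

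Cerebral nuclei, which in these sections were spots rich in striatal genes, had 3 members higher (background 16.6%) and 19 lower (background 17.6%). Sqle, squalene epoxidase, had 34.9, 41.0 and 46.1 CPM against 60.2, 77.4 and 103 CPM in cortex (-0.92 ± 0.10). Mvd had 10.7, 16.5 and 19.5 CPM against 21.2, 26.1 and 46.0 CPM (-0.82 ± 0.14), and Hmgcs1 had 104, 121 and 133 CPM against 167, 214 and 269.8 CPM (-0.80 ± 0.09). All 3 were below the whole cortex range in every section. The 3 higher members were Srebf1 (0.49 ± 0.09), Npc1 (0.43 ± 0.09) and Cyp46a1 (0.24 ± 0.05), each above its own section's cortex value in 6 of 6 sections. The median over members was -0.45, the lowest of the 5 regions, against 0.01 over all genes. Here too all 10 oligodendrocyte markers were called higher than in cortex, and so were 9 of 13 RNA quality genes (Malat1, Gm42418 and 7 mitochondrial genes) and 4 of 10 microglia markers. Of the 8 neuron markers, 4 were called lower and 2 higher, and the part of these lists was not tested.

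Of the 4 other synthesis genes, 1 was called higher and 3 lower than in cortex in hippocampus, thalamus and hypothalamus, 0 higher and 3 lower in cerebral nuclei, and 1 higher and 2 lower in fiber tracts. The higher one, Lbr, a sterol reductase of the nuclear envelope, was called higher than in cortex in 4 regions, most in fiber tracts (1.73 ± 0.27). These counts are to be read against the background shares given above for each region. The 10 lipogenic SREBP targets had 0 called higher and 4 lower in hippocampus, 7 higher and 0 lower in thalamus, 6 higher and 1 lower in hypothalamus, 1 higher and 3 lower in cerebral nuclei and 3 higher and 0 lower in fiber tracts. In fiber tracts those higher included the desaturase genes Scd1 (1.73 ± 0.10) and Scd2 (1.69 ± 0.08), both of which were called lower in hippocampus (-0.36 ± 0.05 and -0.14 ± 0.04). The 9 oxysterol and efflux genes had 4 higher in hippocampus and in fiber tracts, 5 in thalamus and 3 in hypothalamus and in cerebral nuclei, with 1 lower in each of the 5. Among them the cholesterol exporter gene Abca1 in thalamus was at 0.87 ± 0.08.

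The 5xFAD sections were then compared with the young ones, with genotype as a covariate, in an edgeR fit over all 6 sections of a region. With 1 section per group, its error comes from the departure of the sections from additive effects of genotype and condition. Each gene has 2 residual degrees of freedom for it, and edgeR also pools the dispersion over all genes. The calls thus rest partly on that pooling, and the error covers no spread between mice of 1 group. In cortex, 3 of 28 members rose: Acat2, Fdps and Nsdhl, which is 3 of 28 against 0.936% of the 14955 genes tested, and none fell. At an unadjusted p under 0.05, 17 of 28 were higher, against 5.96% of all genes. The median log2 fold change was 0.33 over the members and 0.00 over all genes to 2 decimals, and 26 of 28 values were positive. The exceptions were Ggps1 (-0.12) and Scap (-0.02).

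**Figure D2:**
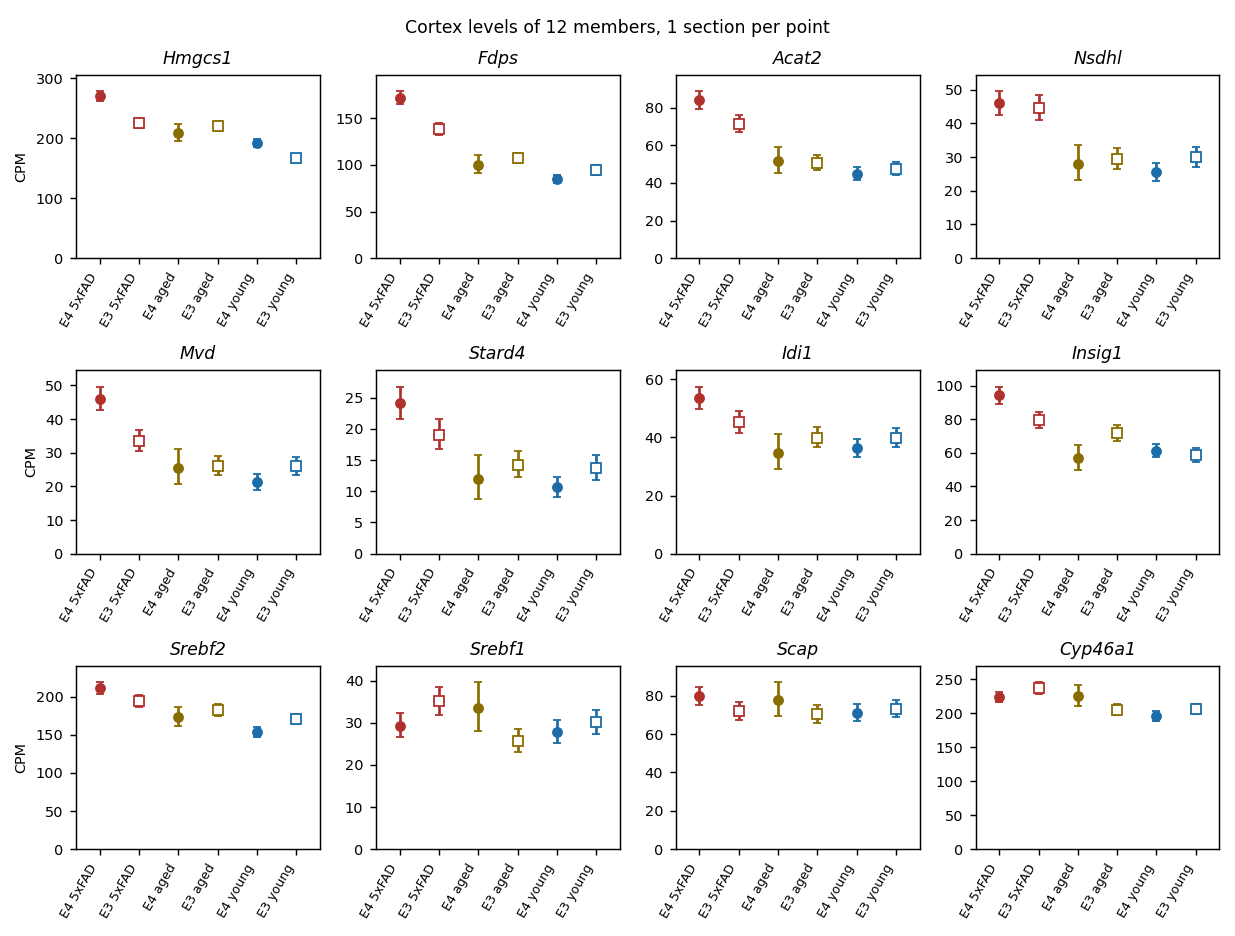
Level of 12 members in cortex, in CPM (y axis, 1 panel per gene), in the 6 sections from E4 5xFAD to E3 young; points are 1 section each and bars are exact Poisson 95% intervals, which cover counting error only. Both 5xFAD sections lie above the other 4 for Acat2, Fdps and Nsdhl, while Scap and Cyp46a1 have no such separation.

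Acat2 in cortex was at 84.0 and 71.6 CPM in the E4 and E3 5xFAD sections, 51.9 and 50.8 CPM in the E4 and E3 aged sections and 45.0 and 47.7 CPM in the E4 and E3 young sections. Fdps was at 172 and 138 CPM in the E4 and E3 5xFAD sections, 100.5 and 107 CPM in the E4 and E3 aged sections and 84.7 and 94.6 CPM in the E4 and E3 young sections. For Nsdhl, a decarboxylating dehydrogenase of the late pathway, the values were 45.9 and 44.6 CPM in the E4 and E3 5xFAD sections, 28.03 and 29.5 CPM in the E4 and E3 aged sections and 25.5 and 29.9 CPM in the E4 and E3 young sections. In all 3 genes both 5xFAD values were above the other 4 sections and the aged values lay nearer to the young than to the 5xFAD ones. The log2 fold changes were 0.65 ± 0.10, adjusted p = 0.0260 for Acat2, 0.69 ± 0.12, adjusted p = 0.0413 for Fdps and 0.62 ± 0.10, adjusted p = 0.0372 for Nsdhl (edgeR). Stard4 had the highest fitted change, 0.74 ± 0.18, and was not called (adjusted p = 0.157). It was at 24.1 and 19.1 CPM in the E4 and E3 5xFAD sections, 11.9 and 14.3 CPM in the E4 and E3 aged sections and 10.6 and 13.7 CPM in the E4 and E3 young sections, so both 5xFAD sections again lay above the rest. Mvd, the decarboxylase that ends the mevalonate steps, was at 46.0 and 33.5 CPM in the E4 and E3 5xFAD sections, 25.6 and 26.1 CPM in the E4 and E3 aged sections and 21.2 and 26.1 CPM in the E4 and E3 young sections (0.65 ± 0.16, adjusted p = 0.179). Its E4 5xFAD section was well above the E3 5xFAD section.

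The 7 mevalonate genes ranged from 0.27 (Pmvk) to 0.69 (Fdps) in 5xFAD cortex. Hmgcs1, which condenses the HMG-CoA precursor, was at 269.8 and 226 CPM in the E4 and E3 5xFAD sections, 208 and 219.8 CPM in the E4 and E3 aged sections and 192 and 167 CPM in the E4 and E3 young sections (0.37 ± 0.10), with both 5xFAD sections above the other 4. Fdft1 (0.47 ± 0.10, adjusted p = 0.0882) and Sqle (0.42 ± 0.12) followed among the squalene genes. After lanosterol, Nsdhl stood out from the other 7 genes, which ranged from 0.11 (Dhcr7) to 0.40 (Msmo1). Dhcr7, the enzyme that completes cholesterol, was nearly level, and so was Cyp46a1, at 224 and 237 CPM in the E4 and E3 5xFAD sections, 226 and 205 CPM in the E4 and E3 aged sections and 196 and 206 CPM in the E4 and E3 young sections (0.10 ± 0.10). The storage enzyme gene Soat1 was at 0.47 ± 0.13 and Npc1 at 0.01 ± 0.10.

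Among the regulators in cortex, Insig1 was at 94.2 and 79.5 CPM in the E4 and E3 5xFAD sections, 56.8 and 71.7 CPM in the E4 and E3 aged sections and 61.3 and 58.5 CPM in the E4 and E3 young sections (0.44 ± 0.13). Srebf2 was at 211 and 194 CPM in the E4 and E3 5xFAD sections, 173 and 182 CPM in the E4 and E3 aged sections and 154 and 170.2 CPM in the E4 and E3 young sections (0.23 ± 0.09). Both genes were highest in the 5xFAD sections, and neither was called. Insig2, which unlike Insig1 is not a strong SREBP target, was at 57.7 and 64.3 CPM in the E4 and E3 5xFAD sections, 39.7 and 56.1 CPM in the E4 and E3 aged sections and 47.1 and 54.2 CPM in the E4 and E3 young sections (0.17 ± 0.10), and Srebf1 at 29.3 and 35.1 CPM in the E4 and E3 5xFAD sections, 33.5 and 25.7 CPM in the E4 and E3 aged sections and 27.9 and 30.2 CPM in the E4 and E3 young sections (0.06 ± 0.16). Both 5xFAD values of Insig2 were just above the other 4, while those of Srebf1 overlapped them. Scap was at 79.9 and 71.9 CPM in the E4 and E3 5xFAD sections, 77.9 and 70.5 CPM in the E4 and E3 aged sections and 71.1 and 73.1 CPM in the E4 and E3 young sections (-0.02 ± 0.09), with little spread at all.

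The calls in cortex depended on single sections. No member was called without the E4 young, the E3 young or the E4 5xFAD section, 4 without the E3 5xFAD section, and 16 without the E4 aged or without the E3 aged section, all higher; DESeq2 called 2, Acat2 and Fdps. Microglia markers moved with the comparison, with a summed level of 1120.2 and 879 CPM in the E4 and E3 5xFAD sections against 280.0 and 359.8 CPM in the E4 and E3 young sections (8 of 10 called higher), while none of the 9 astrocyte markers but Gfap and none of the 10 oligodendrocyte markers was called. The sum of nuclear, mitochondrial and hemoglobin RNAs was 73739 and 98651 CPM in the E4 and E3 5xFAD sections against 120670.0 and 123800.0 CPM in the E4 and E3 young sections, and 6 of its 13 genes were called lower. With those RNAs left out of the sums the same 3 members were called. The part of the microglial difference in the members' values was not tested.

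Hippocampus had 1 called member, Fdps, which is 1 of 28 against 0.573% of all genes, and 11 at an unadjusted p under 0.05 (background 4.9%). Fdps was at 117 and 97.0 CPM in the E4 and E3 5xFAD sections, 69.9 and 79.2 CPM in the E4 and E3 aged sections and 61.6 and 70.1 CPM in the E4 and E3 young sections (0.66 ± 0.13, adjusted p = 0.0297). Fdft1 was at 122 and 106 CPM in the E4 and E3 5xFAD sections, 67.5 and 86.3 CPM in the E4 and E3 aged sections and 67.0 and 79.8 CPM in the E4 and E3 young sections (0.61 ± 0.14, adjusted p = 0.0587). For both genes the 5xFAD sections were the 2 highest of the 6. Stard4 had the highest fitted change, 0.82 ± 0.40, on few counts: 12.3 and 6.47 CPM in the E4 and E3 5xFAD sections, 3.94 and 9.49 CPM in the E4 and E3 aged sections and 4.12 and 8.18 CPM in the E4 and E3 young sections. Its E3 5xFAD section lay inside the range of the others. Sqle was at 0.55 ± 0.13, adjusted p = 0.0675, Insig1 at 0.42 ± 0.18 and Srebf2 at 0.38 ± 0.12. The median over members was 0.27, with 26 of 28 positive, and Ggps1 and Scap were again the exceptions.

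In hippocampus, too, 1 section decided the count. It was 0 without the E4 young or the E4 5xFAD section, 9 without the E3 5xFAD section, 3 without the E4 aged and 4 without the E3 aged section, and 0 with DESeq2. The microglia sum was 957 and 657 CPM in the E4 and E3 5xFAD sections against 323 and 313 CPM in the E4 and E3 young sections, and that of nuclear, mitochondrial and hemoglobin RNAs 89094 and 77981 CPM in the E4 and E3 5xFAD sections against 116070.0 and 99759 CPM in the E4 and E3 young sections, with 11 of its 13 genes called lower.

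**Figure D3:**
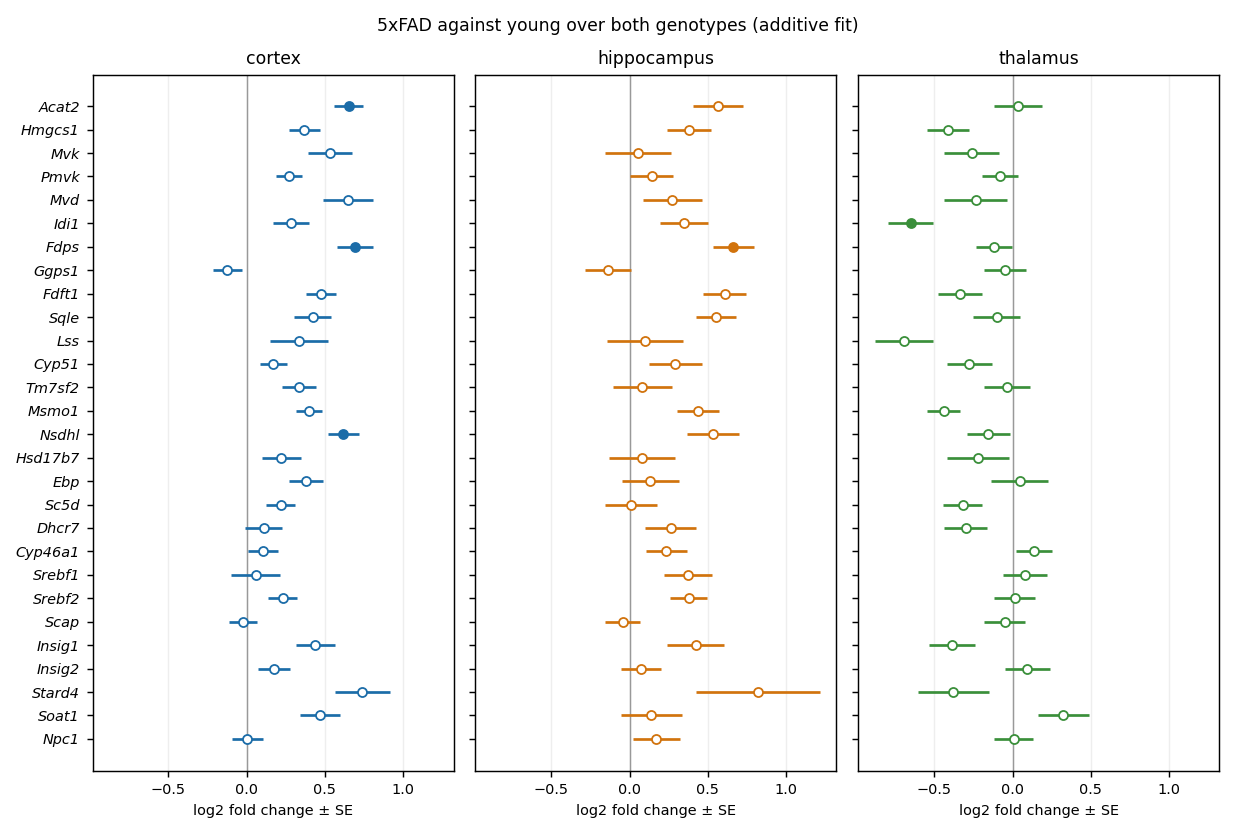
Log2 fold change of each of the 28 members in 5xFAD against young sections, with its SE as bars, in cortex, hippocampus and thalamus (x axis, log2; 1 row per gene by role); filled points were called. In cortex and hippocampus 26 of 28 points lie right of 0, in thalamus 8 of 28.

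In thalamus most values were negative. Idi1, the isomerase between the mevalonate and farnesyl steps, fell, which is 1 of 28 against 0.186% of all genes called lower, and no member rose. It was at 35.3 and 32.3 CPM in the E4 and E3 5xFAD sections, 37.7 and 40.1 CPM in the E4 and E3 aged sections and 43.9 and 57.1 CPM in the E4 and E3 young sections (-0.65 ± 0.14, adjusted p = 0.0490), with the 5xFAD sections lowest and the aged sections between them and the young ones. At an unadjusted p under 0.05, 7 members were lower (background 4.25%). Lss, which closes the sterol rings, was at 12.4 and 8.94 CPM in the E4 and E3 5xFAD sections, 16.3 and 11.2 CPM in the E4 and E3 aged sections and 17.6 and 14.7 CPM in the E4 and E3 young sections (-0.69 ± 0.19, adjusted p = 0.132). Msmo1, a methyl sterol oxidase, was at 79.0 and 81.9 CPM in the E4 and E3 5xFAD sections, 87.6 and 99.5 CPM in the E4 and E3 aged sections and 97.7 and 109 CPM in the E4 and E3 young sections (-0.44 ± 0.11, adjusted p = 0.0857). In Msmo1 both 5xFAD sections were below the other 4, while in Lss the E4 5xFAD section was above the E3 aged one. Hmgcs1 was at 169.8 and 141 CPM in the E4 and E3 5xFAD sections, 187 and 173 CPM in the E4 and E3 aged sections and 174 and 217 CPM in the E4 and E3 young sections (-0.41 ± 0.13), highest in the E3 young section. The median over members was -0.14, and 8 of 28 values were positive, led by Soat1 (0.33 ± 0.16).

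The E3 5xFAD and the E4 young sections bore on the thalamus count. Without the E3 5xFAD section no member was called, and without the E4 young section 4 were, Hmgcs1, Idi1, Fdft1 and Insig1, all lower; without the E3 young section 1 was called, Msmo1. DESeq2 called 0. A thalamus cluster of 118 spots held 110 spots of the E4 young section, so the sections differed in the clusters that made up their thalamus, and with equal spot numbers per cluster 0 members were called. Microglia markers summed to 1315 and 1543 CPM in the E4 and E3 5xFAD sections against 269 and 316 CPM in the E4 and E3 young sections. The sum of nuclear, mitochondrial and hemoglobin RNAs was 90316 and 83115 CPM in the E4 and E3 5xFAD sections against 125010.0 and 105880.0 CPM in the E4 and E3 young sections, and Malat1 and Gm42418 were called lower; the part of either list was not tested.

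In the other regions no member was called in 5xFAD against young, by edgeR or DESeq2. For the unadjusted counts of these regions the share of all genes is not given. In hypothalamus the count called was 0 of 28 against 0.309% of genes in either direction, and 1 member was higher and 3 lower at an unadjusted p under 0.05. Insig2 was at 73.5 and 81.1 CPM in the E4 and E3 5xFAD sections, 54.6 and 54.1 CPM in the E4 and E3 aged sections and 53.6 and 59.2 CPM in the E4 and E3 young sections (0.38 ± 0.11), with both 5xFAD sections above the rest. Hmgcs1 was at 133 and 135 CPM in the E4 and E3 5xFAD sections, 169.8 and 141 CPM in the E4 and E3 aged sections and 181 and 149 CPM in the E4 and E3 young sections (-0.36 ± 0.11), with both 5xFAD sections lowest, and Stard4 at 12.7 and 8.74 CPM in the E4 and E3 5xFAD sections, 13.8 and 14.2 CPM in the E4 and E3 aged sections and 13.5 and 11.3 CPM in the E4 and E3 young sections (-0.33 ± 0.23). Without the E3 5xFAD section 2 members were called lower in hypothalamus, Hmgcs1 and Msmo1. In cerebral nuclei the count was 0 of 28 against 1.07%, with 0 higher and 4 lower unadjusted. Idi1 was at 24.9 and 19.5 CPM in the E4 and E3 5xFAD sections, 18.9 and 24.7 CPM in the E4 and E3 aged sections and 33.9 and 36.2 CPM in the E4 and E3 young sections (-0.75 ± 0.24), and its 2 young values were the highest. Cyp51, the lanosterol demethylase gene, was at 28.9 and 26.6 CPM in the E4 and E3 5xFAD sections, 35.8 and 26.8 CPM in the E4 and E3 aged sections and 42.7 and 34.0 CPM in the E4 and E3 young sections (-0.55 ± 0.22), and Stard4 at 9.14 and 8.28 CPM in the E4 and E3 5xFAD sections, 16.9 and 9.65 CPM in the E4 and E3 aged sections and 6.56 and 14.5 CPM in the E4 and E3 young sections (-0.50 ± 0.42). Oligodendrocyte markers moved with cerebral nuclei, at 3903 and 3837 CPM in the E4 and E3 5xFAD sections against 7537 and 6796 CPM in the E4 and E3 young sections, and 9 of 10 were called lower. There 8 of 13 RNA quality genes were also called lower and 5 of 10 microglia markers higher, and in hypothalamus 2 RNA quality genes lower and 3 microglia markers higher; their part in the members' values was not tested.

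Fiber tracts had 18 members that passed the filter on low counts, and 10 that did not. None of the 18 was called, against 2.07% of genes in either direction, with 1 higher and 3 lower unadjusted, and DESeq2 called 0. Insig1 was at 34.0 and 33.8 CPM in the E4 and E3 5xFAD sections, 101 and 99.8 CPM in the E4 and E3 aged sections and 82.0 and 84.7 CPM in the E4 and E3 young sections (-1.34 ± 0.41, adjusted p = 0.0679). Both 5xFAD values lay below the other 4, on few counts. Scap was at 143 and 107 CPM in the E4 and E3 5xFAD sections, 138 and 76.8 CPM in the E4 and E3 aged sections and 77.8 and 73.3 CPM in the E4 and E3 young sections (0.67 ± 0.29), and Msmo1 at 68.0 and 61.9 CPM in the E4 and E3 5xFAD sections, 55.0 and 119 CPM in the E4 and E3 aged sections and 106 and 124 CPM in the E4 and E3 young sections (-0.89 ± 0.33). The 5xFAD fiber tracts held 147022 and 177672 UMIs in the E4 and E3 sections, against 707140 and 613643 UMIs in the E4 and E3 young sections. There 5 of 10 microglia markers and the astrocyte marker Gfap were called higher, and 6 of the 11 RNA quality genes tested were called lower. Of the 10 oligodendrocyte markers 1 was called higher and 1 lower. The part of these lists in the members' values was not tested. Mvk, mevalonate kinase, was among those not tested, with 0 of 177672 UMIs in the E3 5xFAD section, which allows up to 16.9 CPM (3 counts).

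Whether the change differed between regions was tested in a fit with section as a block and a region by condition term, added after the results above were known; a positive value means that the 5xFAD change was more positive in the region named first. Hmgcs1 was called in cortex minus cerebral nuclei (0.77 ± 0.14, adjusted p = 0.0289), which is 1 of 28 against 0.0936% of all genes. Its cortex levels are given above, and in cerebral nuclei it was at 105 and 104 CPM in the E4 and E3 5xFAD sections, 120.4 and 133 CPM in the E4 and E3 aged sections and 130.2 and 122 CPM in the E4 and E3 young sections. Cortex was thus higher in 5xFAD than in young tissue and cerebral nuclei lower, in both genotypes. As given above, 9 of 10 oligodendrocyte markers were called lower in 5xFAD cerebral nuclei, and their part in this difference was not tested. At an unadjusted p under 0.05, 16 members differed upward (background 3.43%), with 26 of 28 differences positive and a median of 0.56. The Hmgcs1 call was lost without the E4 young, E3 young, E4 5xFAD or E3 5xFAD section (0 called) and with DESeq2 (0), and 5 members were called without the E4 aged or E3 aged section.

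**Figure D4:**
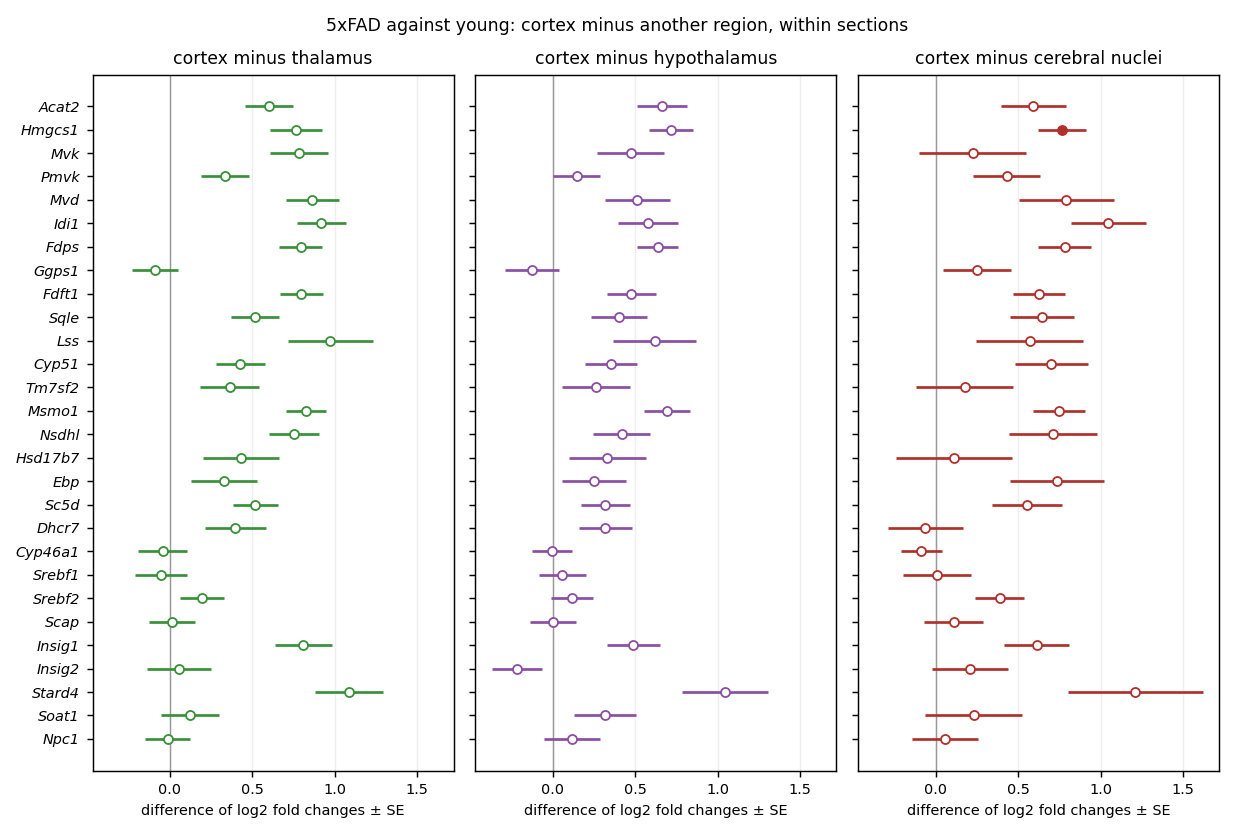
Difference of the 5xFAD against young log2 fold change between cortex and thalamus, hypothalamus or cerebral nuclei (x axis, log2, cortex minus the other region) with its SE as bars, for the 28 members (rows, by role); filled points were called. Hmgcs1 against cerebral nuclei is the 1 filled point, and 24, 24 and 26 of 28 points lie right of 0.

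Cortex minus thalamus gave 0 called members (0.00689% of all genes) and 16 unadjusted (background 1.27%), with a median of 0.47 and 24 of 28 positive. The lowest adjusted p was that of Msmo1 (0.82 ± 0.12, adjusted p = 0.0991), followed by Idi1 (0.92 ± 0.15), Fdps (0.79 ± 0.13) and Fdft1 (0.80 ± 0.13). Stard4 had the highest difference at 1.09 ± 0.21. Without the E4 aged section 3 members were called.

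Cortex minus hypothalamus gave 0 called (0.121%) and 15 unadjusted (background 2.82%), with Hmgcs1 at 0.72 ± 0.13 (adjusted p = 0.0543); 4 were called without the E4 aged or without the E3 aged section. Hippocampus minus thalamus gave 0 called (0.00715%) and 14 unadjusted (background 1.99%), with Idi1 at 0.97 ± 0.18 and Fdft1 at 0.89 ± 0.16, and 3 called without the E3 young section. Cortex minus hippocampus gave 0 called (0.0072%) and 2 unadjusted (background 1.36%), Mvk and Mvd, with a median of 0.05. DESeq2 called 0 in each of these 4 differences. They share sections and regions and are not separate tests.

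In aged against young sections no member was called in any region by edgeR or DESeq2. Few of all genes were called either, by the shares given below, so the lack of calls is not a result about the members. For the unadjusted counts given below, the share of all genes is not given. These fits share the young sections with the 5xFAD comparison. In cortex the count called was 0 of 28 against 0.0201% of all genes, with 1 member higher unadjusted, Hmgcs1. It was at 208 and 219.8 CPM in the E4 and E3 aged sections, against 192 and 167 CPM in the E4 and E3 young sections, with 269.8 and 226 CPM in the E4 and E3 5xFAD sections (0.24 ± 0.10), so both aged sections were above both young ones. Soat1, whose enzyme esterifies cholesterol for storage, was at 20.1 and 18.2 CPM in the E4 and E3 aged sections, against 15.3 and 16.4 CPM in the E4 and E3 young sections, with 24.2 and 22.6 CPM in the E4 and E3 5xFAD sections (0.23 ± 0.14). Ebp, a sterol isomerase gene, was at 26.8 and 24.4 CPM in the E4 and E3 aged sections, against 21.4 and 21.3 CPM in the E4 and E3 young sections, with 30.3 and 29.0 CPM in the E4 and E3 5xFAD sections (0.22 ± 0.12). In both genes the aged values also lay between the 5xFAD and the young ones.

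In aged hippocampus the count was 0 of 28 against 0.267%, with 0 members in either direction unadjusted. Insig1 was at 42.4 and 50.4 CPM in the E4 and E3 aged sections, against 36.6 and 38.7 CPM in the E4 and E3 young sections, with 61.6 and 38.8 CPM in the E4 and E3 5xFAD sections (0.34 ± 0.18), and Npc1 at 38.1 and 34.4 CPM in the E4 and E3 aged sections, against 34.5 and 26.3 CPM in the E4 and E3 young sections, with 37.6 and 34.8 CPM in the E4 and E3 5xFAD sections (0.26 ± 0.14). The third in size was Hmgcs1, at 147 and 165 CPM in the E4 and E3 aged sections, against 129 and 136 CPM in the E4 and E3 young sections, with 208 and 148 CPM in the E4 and E3 5xFAD sections (0.25 ± 0.14). In each of the 3 genes the aged sections were at or above the young ones except for Npc1, where the E3 aged value was just below the E4 young one. In aged thalamus the count was 0 of 28 against 0.156%, with 0 higher and 2 lower unadjusted. Idi1, with the values given above, was at -0.36 ± 0.14. Sc5d, the lathosterol oxidase gene, was at 39.9 and 43.9 CPM in the E4 and E3 aged sections, against 52.0 and 53.7 CPM in the E4 and E3 young sections, with 45.9 and 43.6 CPM in the E4 and E3 5xFAD sections (-0.31 ± 0.12), without overlap of aged and young. Stard4 was at 11.3 and 12.2 CPM in the E4 and E3 aged sections, against 12.0 and 17.1 CPM in the E4 and E3 young sections, with 13.8 and 9.86 CPM in the E4 and E3 5xFAD sections (-0.30 ± 0.22), with only the E3 young section standing high.

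Aged hypothalamus had 0 of 28 called against 0.151%, and 1 higher and 0 lower unadjusted. Nsdhl was at 30.9 and 30.5 CPM in the E4 and E3 aged sections, against 23.0 and 26.4 CPM in the E4 and E3 young sections, with 25.1 and 32.9 CPM in the E4 and E3 5xFAD sections (0.34 ± 0.15), Tm7sf2 at 17.9 and 14.2 CPM in the E4 and E3 aged sections, against 19.4 and 21.6 CPM in the E4 and E3 young sections, with 19.4 and 24.3 CPM in the E4 and E3 5xFAD sections (-0.32 ± 0.19) and Lss at 14.6 and 12.4 CPM in the E4 and E3 aged sections, against 14.4 and 19.7 CPM in the E4 and E3 young sections, with 14.4 and 14.9 CPM in the E4 and E3 5xFAD sections (-0.29 ± 0.21). Only Nsdhl and Tm7sf2 had aged values clear of the young ones. Aged cerebral nuclei had 0 of 28 called against 0.193%, with 0 higher and 1 lower unadjusted. That member was Idi1 (-0.75 ± 0.27), whose aged values given above were as low as its 5xFAD values. Lss was at 15.9 and 7.51 CPM in the E4 and E3 aged sections, against 20.8 and 13.9 CPM in the E4 and E3 young sections, with 15.2 and 15.4 CPM in the E4 and E3 5xFAD sections (-0.57 ± 0.39) and Mvd at 15.9 and 10.7 CPM in the E4 and E3 aged sections, against 16.4 and 19.5 CPM in the E4 and E3 young sections, with 18.8 and 16.6 CPM in the E4 and E3 5xFAD sections (-0.52 ± 0.36). In both genes the E3 aged section was the lowest of the 6. Here 6 of 10 oligodendrocyte markers were called lower with age.

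In aged fiber tracts, 0 of 18 tested members were called against 1.25%, with 1 higher (Npc1, 0.61 ± 0.24) and 1 lower unadjusted. Fdft1 was at 36.7 and 69.1 CPM in the E4 and E3 aged sections, against 94.7 and 108 CPM in the E4 and E3 young sections, with 54.4 and 118 CPM in the E4 and E3 5xFAD sections (-0.85 ± 0.33). Pmvk was at 45.9 and 15.4 CPM in the E4 and E3 aged sections, against 36.8 and 45.6 CPM in the E4 and E3 young sections, with 27.2 and 56.3 CPM in the E4 and E3 5xFAD sections (-0.75 ± 0.58) and Acat2 at 27.5 and 38.4 CPM in the E4 and E3 aged sections, against 50.9 and 57.0 CPM in the E4 and E3 young sections, with 47.6 and 45.0 CPM in the E4 and E3 5xFAD sections (-0.64 ± 0.45). Aged values were below young ones for Fdft1 and Acat2, and Pmvk was mixed. The E4 aged fiber tracts were the shallowest of all, at 108998 UMIs.

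E4 was next compared with E3 across the 3 conditions. No member was called in any region by edgeR or DESeq2. The counts were 0 of 28 against 0.0134% of all genes in cortex, 0.0687% in hippocampus, 0.0149% in thalamus, 0.0679% in hypothalamus and 0.046% in cerebral nuclei, and 0 of 18 against 0.125% in fiber tracts. At an unadjusted p under 0.05, 0 were higher and 1 lower in cortex, 1 and 2 in hippocampus, 1 and 3 in thalamus, 0 and 2 in hypothalamus, 0 and 1 in cerebral nuclei and 0 and 0 in fiber tracts. The share of all genes at this unadjusted threshold is not given, so these counts are not read as a result about the members. The genes described next compare these sections and were not called.

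Insig2 was the member lower in cortex, at 57.7 CPM in E4 against 64.3 CPM in E3 5xFAD tissue, 39.7 CPM in E4 against 56.1 CPM in E3 aged tissue and 47.1 CPM in E4 against 54.2 CPM in E3 young tissue (-0.30 ± 0.09). E4 was below E3 in each of the 3 conditions, most in the aged pair, whose E4 section held the fewest cortex spots. Hsd17b7 was at 19.4 CPM in E4 against 19.4 CPM in E3 5xFAD tissue, 14.9 CPM in E4 against 16.3 CPM in E3 aged tissue and 14.6 CPM in E4 against 16.7 CPM in E3 young tissue (-0.14 ± 0.11) and Nsdhl at 45.9 CPM in E4 against 44.6 CPM in E3 5xFAD tissue, 28.03 CPM in E4 against 29.5 CPM in E3 aged tissue and 25.5 CPM in E4 against 29.9 CPM in E3 young tissue (-0.12 ± 0.09). Both genes were lower in E4 in the aged and young pairs and nearly level in the 5xFAD pair.

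In hippocampus Dhcr7 was at 31.6 CPM in E4 against 34.8 CPM in E3 5xFAD tissue, 24.5 CPM in E4 against 34.6 CPM in E3 aged tissue and 21.8 CPM in E4 against 33.5 CPM in E3 young tissue (-0.42 ± 0.14), below E3 in each pair. Srebf1 was at 39.6 CPM in E4 against 30.9 CPM in E3 5xFAD tissue, 32.1 CPM in E4 against 24.4 CPM in E3 aged tissue and 27.99 CPM in E4 against 24.3 CPM in E3 young tissue (0.33 ± 0.13), above E3 in each pair. Stard4, with the few counts given above, was at -0.41 ± 0.34 and turned its direction between pairs. In thalamus Hsd17b7 was at 18.6 CPM in E4 against 21.1 CPM in E3 5xFAD tissue, 21.1 CPM in E4 against 24.5 CPM in E3 aged tissue and 15.1 CPM in E4 against 29.4 CPM in E3 young tissue (-0.45 ± 0.16) and Cyp46a1 at 224 CPM in E4 against 292 CPM in E3 5xFAD tissue, 227 CPM in E4 against 257 CPM in E3 aged tissue and 193 CPM in E4 against 252 CPM in E3 young tissue (-0.29 ± 0.09). Both were lower in E4 in every pair, and Lss (0.43 ± 0.15) was higher in every pair.

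Srebf2 in hypothalamus was at 141 CPM in E4 against 177 CPM in E3 5xFAD tissue, 146 CPM in E4 against 165 CPM in E3 aged tissue and 133 CPM in E4 against 152 CPM in E3 young tissue (-0.26 ± 0.08), and Cyp46a1 at 125 CPM in E4 against 162 CPM in E3 5xFAD tissue, 138 CPM in E4 against 141 CPM in E3 aged tissue and 117 CPM in E4 against 139 CPM in E3 young tissue (-0.24 ± 0.09). Sqle was at 55.8 CPM in E4 against 75.6 CPM in E3 5xFAD tissue, 73.0 CPM in E4 against 71.0 CPM in E3 aged tissue and 58.7 CPM in E4 against 68.6 CPM in E3 young tissue (-0.22 ± 0.11). E4 was below E3 in all pairs for Srebf2 and Cyp46a1, and in 2 of 3 for Sqle. In cerebral nuclei Nsdhl was at 20.8 CPM in E4 against 26.6 CPM in E3 5xFAD tissue, 18.9 CPM in E4 against 32.2 CPM in E3 aged tissue and 18.6 CPM in E4 against 26.8 CPM in E3 young tissue (-0.56 ± 0.21), lower in E4 in every pair. Lss (0.36 ± 0.29) and Sc5d, at 37.1 CPM in E4 against 37.3 CPM in E3 5xFAD tissue, 32.8 CPM in E4 against 38.6 CPM in E3 aged tissue and 31.7 CPM in E4 against 51.3 CPM in E3 young tissue (-0.34 ± 0.18), followed. In fiber tracts Fdft1 (-0.44 ± 0.24), Sc5d, at 74.8 CPM in E4 against 39.4 CPM in E3 5xFAD tissue, 110.1 CPM in E4 against 61.4 CPM in E3 aged tissue and 67.9 CPM in E4 against 60.3 CPM in E3 young tissue (0.41 ± 0.27), and Insig2, at 47.6 CPM in E4 against 33.8 CPM in E3 5xFAD tissue, 45.9 CPM in E4 against 30.7 CPM in E3 aged tissue and 26.9 CPM in E4 against 50.5 CPM in E3 young tissue (-0.36 ± 0.41), had the highest absolute values. Fdft1 was lower in E4 in each pair and Sc5d higher in each pair, whereas Insig2 was mixed.

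Single pairs of sections have no replicate, so their log2 ratios of CPM are given with exact binomial 95% intervals, which cover counting error only; with 1 section a group they compare these sections and not the genotypes. In 5xFAD cortex the median E4 over E3 ratio of the members was 0.12 (all genes 0.08), and 12 of 28 intervals lay above 0 (background 23.5%). Mvd had 0.46 (95% interval 0.28 to 0.63), Stard4 0.34 (95% interval 0.10 to 0.57) and Fdps 0.32 (95% interval 0.23 to 0.41). In aged cortex the median was -0.02. In young cortex it was -0.11, with 9 of 28 intervals below 0 (background 10.7%), and the same genes had -0.30 (Mvd), -0.37 (Stard4) and -0.16 (Fdps). Those 3 genes were thus higher in E4 in the 5xFAD pair and lower in E4 in the young pair. Over the settings tried, the cortex median ran from 0.04 to 0.12 in the 5xFAD pair, -0.13 to -0.02 in the aged pair and -0.12 to -0.02 in the young pair, so the ranges of the aged and young pairs overlapped. The settings included subtracting the median of all genes, which is not given here for the aged and young pairs.

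**Figure D5:**
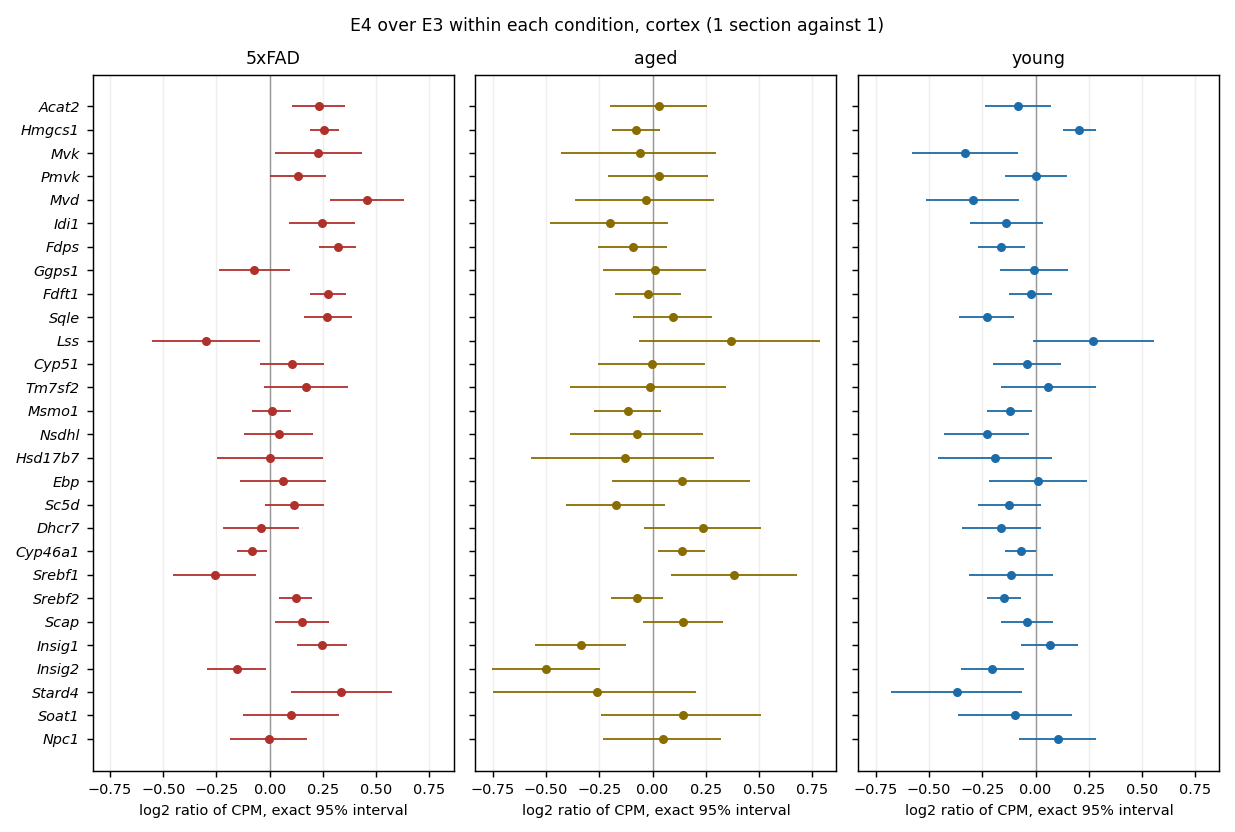
Log2 ratio of CPM in cortex of the E4 over the E3 section, in the 5xFAD, aged and young pairs, for the 28 members (1 row per gene by role), with exact 95% intervals that cover counting error only. The medians are 0.12 in the 5xFAD pair, -0.02 in the aged pair and -0.11 in the young pair; they moved with the settings, and the ranges of the aged and young pairs overlap.

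In hippocampus the median E4 over E3 ratio was 0.10 in the 5xFAD pair, -0.22 in the aged pair and -0.16 in the young pair. The settings tried moved it from 0.04 to 0.14 in the 5xFAD pair, -0.22 to -0.17 in the aged pair and -0.16 to -0.0022 in the young pair. In thalamus it was 0.10 in the 5xFAD pair, -0.07 in the aged pair and -0.33 in the young pair, where 19 of 28 intervals lay below 0 (background 19.9%). The cluster held almost wholly by the E4 young section lay in that thalamus, and its part in the ratio was not tested. For these hippocampus and thalamus pairs the median of all genes is not given. Their medians are therefore not read as a result about the members.

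Seen within each genotype, the 5xFAD over young ratio in cortex had a median of 0.49 in E4, with 24 of 28 intervals above 0 (background 32.8%), and of 0.32 in E3, with 23 of 28 above 0 (background 19.1%). All genes had medians of 0.12 in E4 and 0.06 in E3. Fdps had 1.02 (95% interval 0.93 to 1.12) in E4 and 0.55 (95% interval 0.44 to 0.65) in E3. In hippocampus the median was 0.48 in E4, with 19 intervals above 0 (background 16.5%), and 0.19 in E3, with 8 above 0 (background 10.7%). In thalamus the genotypes lay on either side of 0: the median was 0.13 in E4, with 6 of 28 above 0 (background 25.3%), and -0.25 in E3, with 16 of 28 below 0 (background 9.43%). The E4 thalamus median equalled that of all genes (0.13). Whether the genotypes differ was not tested, since each ratio rests on 1 section per side and the ratios within a genotype share its sections with the ratios between genotypes.

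Spots of the 5xFAD sections with at least 1 UMI of Cst7, a cystatin gene of activated microglia, were set against spots of the same region and section with none. In cortex the median log2 ratio of the members was 0.01 in the E4 section (595 spots with and 254 without) and 0.04 in the E3 section (374 and 580). In hippocampus it was -0.05 in the E4 section (170 and 123) and 0.02 in the E3 section (35 and 192). The members' medians were thus near 0 between these spots. Summed microglia markers were at 1242 CPM with Cst7 and 804.6 CPM without in the E4 cortex and at 1078 CPM with and 739.2 CPM without in the E3 cortex. Cortex spots without Cst7 still held more of these markers than young cortex, at 280.0 and 359.8 CPM in the E4 and E3 young sections. Such spots cannot stand for young tissue, so the part of microglia in 5xFAD against young was not tested here. In the E3 hippocampus, with 35 spots with Cst7, the microglia sum ran the other way, at 538.6 CPM with and 686.9 CPM without. Oligodendrocyte markers summed to 3387 CPM with Cst7 and 2559 CPM without in the E4 cortex and 2380 CPM with and 2135 CPM without in the E3 cortex. In hippocampus they were at 2956 CPM with and 2605 CPM without in the E4 section and 1726 CPM with and 2218 CPM without in the E3 section. Spots with Cst7 were also deeper, with a median of 17500 against 16588 UMIs in the E4 cortex and 14238 against 12750 UMIs in the E3 cortex, 18310.0 against 16470.0 UMIs in the E4 hippocampus and, the widest gap, 10344 against 5681 UMIs in the E3 hippocampus.

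Among the other 34 pathway genes, 5xFAD against young gave few calls. Npc2, the soluble partner of NPC1 in lysosomes, was called higher in cortex (0.89 ± 0.12), thalamus (1.05 ± 0.11) and cerebral nuclei (0.71 ± 0.15). In thalamus Abca1 (0.69 ± 0.15) and the oxysterol enzyme gene Ch25h (4.57 ± 0.59) were also called higher, which made 2 of the 9 oxysterol and efflux genes. In cerebral nuclei Scd1 was called lower (-1.01 ± 0.15). Of the 10 microglia markers, 8 were called higher in cortex, 8 in thalamus and 5 in cerebral nuclei. In cerebral nuclei 9 of 10 oligodendrocyte markers were called lower. The part of these lists was not tested. The share of all genes called higher in thalamus is not given here, so these counts are not a result about the pathway.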

How the data were processed

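The 6 Visium sections, 1 per group, were used. Per the submitters' processing notes, Space Ranger 1.3.0 with STAR 2.5.1b aligned reads to a mixed mm10 and GRCh38 reference; the filtered UMI counts per gene and spot are as deposited by the authors, raw and not normalized, and the deposited tissue masks are values of 0 or 1 per spot. Per the file headers, 5 matrices carry version 1.2.2 of Space Ranger, and that of E3 5xFAD carries 2.0.0. Of 16979 masked spots, 2455 had no barcode in the matrices (2 in the E3 5xFAD section and 402 to 610 in each of the others, for a reason not given in the sources used here), which left 14524. No per-sample column was left unused (0 others). Members, lists and tests were chosen with earlier results of these data known, and the difference between regions and the unnamed fiber tract clusters were added as alternatives after seeing the data.

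Spots were clustered in scanpy 1.11.5 (3000 variable genes, 20 principal components, 20 neighbours, resolution 0.8) without 62 genes, the members and other pathway genes, giving 22 clusters named by region markers; 970 spots in clusters with 3 or more leading genes of another class stayed unnamed. No doublet caller was run, since spots hold several cells. UMIs were summed per region and section and tested with edgeR 4.0.16 (R 4.3.3, TMM, filterByExpr, quasi-likelihood, Benjamini-Hochberg over all genes tested, threshold 0.05), as genotype plus condition within a region and as region with section as block between regions; DESeq2 1.42.0 was an alternative. Log2 fold changes are given ± SE. Section pairs were compared as log2 ratios of CPM, with exact binomial 95% intervals and at least 20 UMIs in the sections of a pair added together. These intervals, and the limit from a count of 0, cover counting error only. Scripts were tested on simulated counts. By rule, per-section values were given for members called in a fit, the 3 with the highest absolute fold change in it, and the regulators and Cyp46a1 where described. Other alternatives were the filter on low counts, spot numbers per cluster, section centring, spot depth, the section block, quality genes and each section left out. Values of some genes outside the 28 are not reported here.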

Additional observations from a re-analysis of the deposited data

Results flagged for a closer look

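In Hmgcs1 the 5xFAD against young change was more positive in cortex than in cerebral nuclei by 0.77 on the log2 scale (edgeR, adjusted p = 0.0289), by a test of the difference itself. That test was added after other results were known. The call was lost when any single young or 5xFAD section was left out, and with DESeq2, as given above.

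In 19 further cases, of 12 members, the 95% intervals of 2 log2 ratios lay on opposite sides of 0. Among them the Sqle difference in thalamus is listed in 2 forms, which are the same difference. These differences were not tested, and the intervals cover counting error only. The share of all genes with such intervals is not given, so the count is not a result about the members. Every case uses both the E4 young and the E3 young section. In thalamus the E4 young section held almost all spots of a cluster, as given above. The part of either section was not tested. Between the E4 over E3 ratio in 5xFAD tissue and that in young tissue, the difference in cortex was 0.56 for Mvk (0.23 and -0.33), 0.75 for Mvd (0.46 and -0.30), 0.48 for Fdps (0.32 and -0.16), 0.50 for Sqle (0.27 and -0.23), 0.27 for Srebf2 (0.12 and -0.15) and 0.71 for Stard4 (0.34 and -0.37). In hippocampus it was 0.47 for Srebf2 (0.22 and -0.25) and 1.91 for Stard4 (0.93 and -0.99), which had few counts. In thalamus it was 0.58 for Hmgcs1 (0.27 and -0.31), 1.004 for Mvd (0.46 and -0.55), 0.67 for Fdft1 (0.43 and -0.25), 0.64 for Sqle (0.31 and -0.33) and 0.74 for Insig1 (0.34 and -0.41).

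Between the 5xFAD over young ratio in E4 and that in E3, the thalamus difference was 0.64 for Sqle (0.29 and -0.35) and 0.51 for Srebf2 (0.36 and -0.15). Between the aged over young ratio in E4 and that in E3, it was -0.64 for Cyp46a1 in hippocampus (-0.37 and 0.27), and in thalamus 0.48 for Srebf2 (0.32 and -0.17), 0.50 for Scap (0.23 and -0.27) and 0.61 for Insig2 (0.33 and -0.28). These ratios share sections. The Sqle difference of 0.64 is the one given above for Sqle in thalamus, over the same sections, and not a further case.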

How the results depend on the processing

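No paired analysis was possible because each group has 1 section, so that no replicate numbers pair sections of 2 groups; section was the block between regions, and genotype and condition were terms of 1 fit within a region. The cause of each change below was not tested. With 1 section left out (the lone section of a pair assumed to vary like the other groups), the members called in 5xFAD against young ranged from 0 to 16 in cortex, 0 to 9 in hippocampus, 0 to 4 in thalamus and 0 to 2 in hypothalamus. Between regions they ranged from 18 to 20 in hippocampus, 13 to 18 in thalamus, 9 to 17 in hypothalamus, 17 to 23 in cerebral nuclei and 6 to 9 in fiber tracts, all against cortex. In the differences they ranged from 0 to 3 (cortex minus thalamus), 0 to 4 (cortex minus hypothalamus), 0 to 5 (cortex minus cerebral nuclei) and 0 to 3 (hippocampus minus thalamus). Without a filter on low counts, 6 members were called in 5xFAD cortex, 4 in hippocampus and 2 in thalamus, and 11, 5 and 4 in cortex minus thalamus, hypothalamus and cerebral nuclei and 6 in hippocampus minus thalamus. With the same spot numbers of each cluster the counts were 5 in cortex, 2 in hippocampus, 0 in thalamus, 1 in cortex minus thalamus and 2 in cortex minus hypothalamus. DESeq2 gave 0 in hippocampus, in thalamus and in cortex minus cerebral nuclei, and 4 in fiber tracts against cortex (3 higher and 1 lower, so that most were higher). There the count was 7 without the section block (4 higher and 3 lower) and 14 with the unnamed clusters included, an alternative added after seeing the data, and 6 without the E4 5xFAD section (5 higher and 1 lower). Without section centring, 3 were called in hippocampus, 0 in thalamus and 2 in cortex minus cerebral nuclei, and with spots of at least 5000 UMIs 0 in hippocampus and 0 in thalamus; that setting could not be fitted in fiber tracts, where a section had no such spots. Without mitochondrial, hemoglobin and nuclear RNA genes, 1 was called in cortex minus hypothalamus. The 10-base sterol element was found in 0 members. The members' median log2 ratios of section pairs kept their sign in 82 of 84 settings; for E4 over E3 it ranged from 0.04 to 0.12 (5xFAD), -0.13 to -0.02 (aged) and -0.12 to -0.02 (young) in cortex and from 0.04 to 0.14 (5xFAD), -0.22 to -0.17 (aged) and -0.16 to -0.0022 (young) in hippocampus, and for 5xFAD over young in hippocampus from 0.36 to 0.51 in E4 and 0.11 to 0.24 in E3. Fiber tracts were limited by depth, since 10 of 28 members did not pass the filter there, and with 1 section per group no spread between mice could be measured.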
